A study of Mus musculus with 23 samples.

Results

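The nuclear genes for subunits of respiratory complexes II, III and IV, for ATP synthase (complex V) and for cytochrome c were followed in cultured mouse hippocampal neurons, in cell-body and axonal RNA, with and without a magnetic pull. Members were taken by symbol from the protein-coding genes: Sdha to Sdhd, all Uqcr genes, Cyc1, Cycs, the Cox4 to Cox8 genes and all Atp5 genes. This gave 50 of the 55487 counted gene IDs, namely 4 genes of complex II, 9 of complex III, 18 of complex IV, 18 of complex V and Cycs. The 8 pseudogenes with matching symbols were left out. The 50 IDs carry 49 symbols, because a second locus named Atp5o lies wholly under the exons of Atp5o and Donson. That locus and Cox8c had no count in any library.

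Complex II is the succinate dehydrogenase of the citric acid cycle and passes electrons to ubiquinone. Complex III hands them to cytochrome c, complex IV passes them on to oxygen, and ATP synthase uses the proton gradient that complexes III and IV help to build. Complex II is encoded wholly in the nucleus, while complexes III, IV and V combine nuclear subunits with a few made inside mitochondria. In neurons these enzymes supply the ATP for ion pumping and synaptic transmission, and mitochondria are carried along axons.

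Hippocampal cells of C57Bl/6 pups at postnatal day 1 were seeded at 200000 cells on one side of a microfluidic chamber, and axons grew through channels into a separate compartment. Every culture, controls included, was given 5 µg/ml magnetic nanoparticles (MNPs). The stretched cultures were held in a gradient of 50 T/m which began on day in vitro (DIV) 1 and ended on DIV 6, whereas control cultures had a null gradient. The 4 groups were control soma (n = 6), stretched soma (n = 6), control axon (n = 5) and stretched axon (n = 6), where soma stands for RNA that the labels call total cell culture. Nothing in the labels says which libraries came from separate dissections or animals, so p-values measure the spread between these libraries, which may be technical.

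Libraries held 16369153 to 43048953 counted reads. Counts were found for 22452 to 24575 genes in somata but for 4263 to 10242 in the axonal compartment. The compartment held glial transcripts as well, although its label names a pure axonal preparation: Gfap, the astrocyte filament gene, stood at 2867 to 20253 CPM (counts scaled to a library total of 1000000) there and at 3546 to 10496 CPM in somata. All 8 astrocyte markers were counted in at least 1 library of each axonal group, while of 8 microglial markers 5 were at 0 in every control axon library and 1 in every stretched axon library. The library labelled control soma replicate 4 lay with the stretched libraries on the first principal component of all soma libraries (31.2 against -52.3 to -26.1 for the other controls and 8.61 to 40.8 for stretched somata). Counts of calls, range overlaps and complex values in somata are therefore given with and without it; fold changes of single genes, length classes and other lists are with it unless stated. In these bulk libraries, fewer cells of a type and less RNA per cell cannot be told apart.

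The promoters of 4 members that stand at the ends of the distributions below are shown first: Sdhd, which rose with stretch in somata, Uqcrh and Atp5k, which had the lowest called fold changes there, and Cox6a1, which was called higher in axons than in somata in both culture conditions. Each stretch runs from 170 bases before to 30 bases after the RefSeq start (GRCm38.p6), on the gene's strand, 5′ to 3′. Capitals mark the core that ETS factors such as GABP bind (CCGGAAG, which reads CTTCCGG on the other strand) and a palindromic NRF1 motif, which is the first run of capitals in Cox6a1 and in Atp5k. The windows are chr9:50603820-50604019 for Sdhd, chr4:116075041-116075240 for Uqcrh, chr5:115348929-115349128 for Cox6a1 and chr5:108434370-108434569 for Atp5k, all on the minus strand.
Sdhd: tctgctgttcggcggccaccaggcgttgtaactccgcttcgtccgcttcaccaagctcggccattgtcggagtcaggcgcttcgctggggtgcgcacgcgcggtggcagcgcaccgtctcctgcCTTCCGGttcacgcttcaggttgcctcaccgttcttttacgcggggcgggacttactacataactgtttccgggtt
Uqcrh: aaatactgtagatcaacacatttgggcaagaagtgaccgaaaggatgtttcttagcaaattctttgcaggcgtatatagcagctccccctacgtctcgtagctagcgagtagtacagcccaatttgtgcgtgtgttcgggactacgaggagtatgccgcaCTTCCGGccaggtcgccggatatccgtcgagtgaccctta
Cox6a1: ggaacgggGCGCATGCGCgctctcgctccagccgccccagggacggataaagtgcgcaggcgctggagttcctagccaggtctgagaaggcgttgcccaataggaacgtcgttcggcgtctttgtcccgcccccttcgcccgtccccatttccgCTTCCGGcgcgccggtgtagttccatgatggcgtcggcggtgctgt
Atp5k: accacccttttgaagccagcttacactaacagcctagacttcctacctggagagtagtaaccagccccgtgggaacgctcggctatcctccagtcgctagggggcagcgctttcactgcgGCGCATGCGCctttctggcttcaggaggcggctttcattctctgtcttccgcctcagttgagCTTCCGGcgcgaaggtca

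All 4 stretches hold the ETS core on the reverse strand, which begins 46 bases before the start in Sdhd, 10 before it in Uqcrh, 16 before it in Cox6a1 and at base 13 after it in Atp5k. The core was therefore present both in the gene that rose and in genes that fell. RefSeq windows of 250 bases before to 50 bases after the start were matched for 35 of the 50 members. Searched on both strands, the ETS core was in 11 of these (31.4%) and in 8.86% of 32851 windows of that length over the genome. The NRF1 motif was in 4 members' windows (11.4%) and in 0.971% of all windows, and GGGGCGGGG, an Sp1 motif, was in 5 (14.3%) and in 11.4%. AAGATGGCG, which YY1 binds, was in 1 window of a member (2.86%) and in 1.4% of all. No motif's letters contain those of another. Of the 25 members with a window that fell in stretched somata, 9 held the ETS core and so did 2 of the 10 others. A letter match describes the window and does not show that a factor binds there.

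In control somata the 50 members together took 0.891% to 1.23% of all counts. Per kilobase of transcript model, the highest median level was that of Cox4i1 (890.0 CPM per kb), the main isoform of a regulatory subunit of complex IV, followed by Cox6a1 (796 CPM per kb) and the catalytic ATP synthase subunit Atp5b (737 CPM per kb). Cycs (41.8 CPM per kb) and Sdhc (41.5 CPM per kb) lay low on the same scale. The tissue isoforms lay lower still: medians were 15.9 CPM per kb for Cox6b2, known from testis, 3.94 for Cox7a1 and 3.84 for Cox6a2, both known from heart and muscle, and 2.67 for Cox4i2, known from lung and from low oxygen. Cox7b2 and Cox8b stood at 0.693 and 0.330 CPM per kb.

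Isoform pairs kept to one partner in every soma library. Cox4i1 made up 99.4% to 99.8% of Cox4i counts, Cox6a1 99.1% to 99.8% of Cox6a counts and Cox7a2 98.3% to 99.6% of the counts of Cox7a1 and Cox7a2. Cox6b1 ranged wider, from 93.6% to 99.1% of Cox6b counts. Atp5g1, Atp5g2 and Atp5g3 encode the same mature subunit c of the ATP synthase rotor. Atp5g1 and Atp5g3 gave 46.1% ± 2.34 and 48.2% ± 2.02 of their summed counts in control somata (SD, n = 6). Atp5g2 gave 5.71% ± 0.616 there and 6.93% ± 0.650 in stretched somata (SD, n = 6 each). The ranges of Atp5g2, 5.12% to 6.37% and 5.78% to 7.68%, overlapped.

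Stretch in somata was accompanied by lower levels of most members of complexes III, IV and V, while complex II did not move as a block. Of the 46 members tested, 34 fell and 2 rose at an adjusted p under 0.05 (edgeR quasi-likelihood test, Benjamini-Hochberg over 15632 genes), and 10 were not called. The same threshold called 13.9% of all genes tested lower and 11.2% higher. The members' median log2 fold change was -0.44, beside -0.03 over all genes tested. By complex, 7 of 9 tested members fell in complex III, 10 of 15 in complex IV and 15 of 17 in complex V, with medians of -0.44, -0.46 and -0.46. In complex II 1 of 4 fell and 1 rose, with a median of -0.07.

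**Figure D1:**
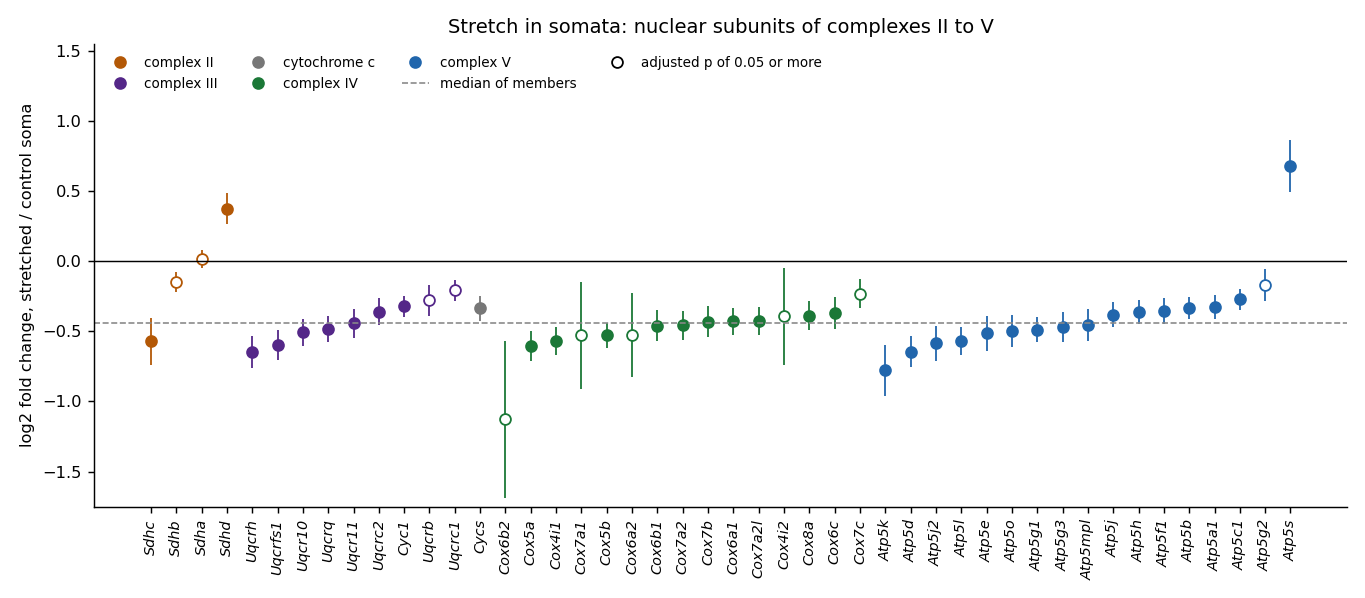
Log2 fold change of each of the 46 tested members in stretched against control somata, with bars of 1 standard error, ordered by complex and colour. Open circles had an adjusted p of 0.05 or more. Nearly all points of complexes III, IV and V lie under 0, while the 4 genes of complex II spread from -0.57 to 0.38 and Atp5s lies highest at 0.68.

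The summed level of each complex shows the same order. Complex II gave 1077 ± 58.7 CPM in control and 1060 ± 40.3 CPM in stretched somata, a ratio of 0.985. Complex III went from 2326 ± 241 to 1822 ± 66.2 CPM (ratio 0.783), complex IV from 2553 ± 344 to 1899 ± 121 CPM (ratio 0.744) and complex V from 4985 ± 561 to 3912 ± 204 CPM (ratio 0.785; SD, n = 6 in each group). Control soma replicate 4 held 1886, 1938 and 3950 CPM of complexes III, IV and V, below every other control library. Without that library the ratios were 0.976, 0.755, 0.710 and 0.754 for complexes II, III, IV and V. With TMM-scaled CPM and all 12 somata, the complex II ratio was 1.04, on the other side of 1.

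**Figure D2:**
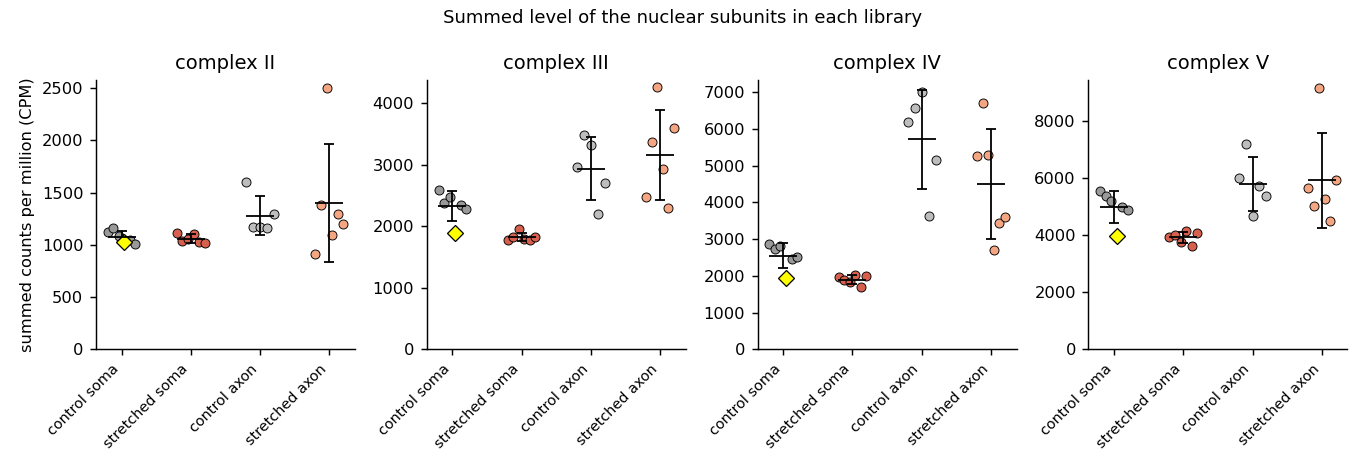
Summed CPM of the nuclear subunits of complexes II, III, IV and V in each of the 23 libraries, with the mean and SD of each group as a bar. The yellow diamond is control soma replicate 4, which sits with the stretched somata for complexes III, IV and V. The axonal libraries spread more widely than the somata, and complex IV is highest in control axons, at 3619 to 7018 CPM.

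Control soma replicate 4 weighs on these ranges. Among the 46 members tested, 41 were lower in that library than in each of the other 5 controls. With it, the CPM ranges of the 2 groups did not overlap for 3 members that were lower (Uqcr10, Cox5a and Cox5b; 2.27% of all genes tested were lower without overlap) and 1 that was higher (Atp5s; 1.84%). Without it, 32 members were lower without overlap, beside 9.53% of all genes tested, and 1 was higher, beside 14.0%. The test without it called 3183 of 15857 genes lower and 2889 higher, beside 2172 and 1757 of 15632 with it. Among members it called 38 lower and 2 higher, with a median of -0.52. All 36 members called with that library were among these members, and Sdhb, Uqcrb, Uqcrc1 and Cox7c were called in addition. Each of the 36 then had a log2 fold change farther from 0, by 0.049 to 0.12. Medians without it were -0.09, -0.52, -0.53 and -0.54 for complexes II, III, IV and V. In 1 fit over all 4 groups, which shares 1 estimate of the spread with the axonal libraries, no member was called (0 of 16113 genes).

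In complex II the 4 subunits went separate ways. Sdhd, a membrane anchor that takes part in binding ubiquinone, stood at 92.8, 109 and 138 CPM in control somata (lowest, median, highest) and at 126, 146 and 176 CPM in stretched somata. The ranges overlapped through control soma replicates 3 and 4, the latter being the highest control. The log2 fold change was 0.38 (SE 0.11, adjusted p = 0.0226, edgeR), and 0.43 without that library. Sdhc, the other anchor, moved the opposite way: 79.1, 131 and 178 CPM in controls against 67.7, 95.2 and 102 CPM with stretch, a log2 fold change of -0.57 (SE 0.17, adjusted p = 0.0248, edgeR). Both calls were lost when certain single libraries were left out: Sdhd without control soma 2 or 6 or stretched soma 1 or 5, and Sdhc without control soma 1 or 2 or stretched soma 4 or 6. Sdha, the flavoprotein that oxidises succinate, stood at 383, 410.4 and 427 CPM in controls and at 407, 422 and 445 CPM with stretch (log2 fold change 0.02, SE 0.06). Sdhb, the iron-sulfur subunit, stood at 387, 429.7 and 458 CPM and at 367, 393 and 425 CPM (log2 fold change -0.15, SE 0.07). The ranges of both overlapped and neither was called.

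In complex III, Uqcrh, the acidic hinge protein near the cytochrome c site, fell most among the called genes. It stood at 104, 162 and 176 CPM in controls and at 88.6, 103 and 114 CPM in stretched somata, and the only control inside the stretched range was replicate 4. The log2 fold change was -0.65 (SE 0.12, adjusted p = 0.00432, edgeR). Uqcrfs1, the Rieske iron-sulfur protein, stood at 221, 332 and 365 CPM in controls and at 193, 221 and 227 CPM with stretch, a log2 fold change of -0.60. Cyc1, cytochrome c1, stood at 236, 291 and 298 CPM and at 217, 229.8 and 249 CPM, and fell by 0.32 on the log2 scale. Here too the lowest control, inside the stretched range, was replicate 4. The core protein Uqcrc2, at 154, 203 and 234 CPM in controls and 154, 159.7 and 172 CPM with stretch, fell by 0.36. The other core protein, Uqcrc1, stood at 546, 576 and 647 CPM and at 481, 509 and 604 CPM and was not called (log2 fold change -0.21, adjusted p = 0.0573, edgeR), nor was the small subunit Uqcrb (-0.28). Cycs, the mobile electron carrier between complexes III and IV, stood at 111, 131 and 147 CPM in controls and at 100.0, 107 and 117 CPM with stretch, a log2 fold change of -0.34 (SE 0.09, adjusted p = 0.0153, edgeR).

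In complex IV, Cox5a, a matrix-side subunit, stood at 97.3, 133 and 157 CPM in controls and at 80.1, 88.6 and 95.2 CPM with stretch. The groups did not overlap, and the log2 fold change was -0.60 (SE 0.11, adjusted p = 0.00432, edgeR). Cox5b, which binds zinc on the same side, also separated without overlap, from 149 to 199 CPM in controls and from 116 to 148 CPM with stretch (log2 fold change -0.53). Cox4i1 stood at 489, 681 and 786 CPM in controls and at 406, 467 and 503 CPM with stretch, a log2 fold change of -0.57, and the groups overlapped through replicate 4 alone. The small subunit Cox8a, at 147, 197 and 233 CPM and then 133, 157 and 174 CPM, fell by 0.39 on the log2 scale. Cox6c, at 124, 152 and 201 CPM and then 100.0, 122 and 149 CPM, fell by 0.37. Ranges overlapped for both, and Cox6c lost its call without control soma 1, 2, 3 or 5 or stretched soma 4 or 6. Cox7c, at 92.0, 116 and 146 CPM and then 86.6, 105 and 110.2 CPM, was not called (-0.23, adjusted p = 0.107, edgeR). None of the 4 tested tissue isoforms was called: Cox4i2, Cox6a2, Cox6b2 and Cox7a1 had log2 fold changes of -0.39, -0.53, -1.13 and -0.53 with standard errors of 0.30 to 0.56. Cox6b2 was called with the Eif2s3y set, described below, as a covariate (-1.14, adjusted p = 0.00183, edgeR) and within the set of higher Eif2s3y level (-1.06). Cox7b2 and Cox8b were below the filter for testing, as were Cox8c and the second Atp5o locus at 0.

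In ATP synthase, the catalytic hexamer, the central stalk, the peripheral stalk and the membrane part all had members that fell. Atp5a1 and Atp5b, the alpha and beta subunits of the hexamer, each fell by 0.33 on the log2 scale. Atp5a1 stood at 702, 879.6 and 969 CPM in controls and at 657, 735 and 764 CPM with stretch. Atp5b stood at 1168, 1412 and 1515 CPM and at 1036, 1157 and 1247 CPM. For both, the lowest control library lay inside the stretched range and the other 5 lay above it. The rotating gamma subunit Atp5c1, at 289, 321 and 368 CPM and then 264, 278 and 301 CPM, fell by 0.27. The epsilon subunit Atp5e, at 72.9, 98.1 and 127 CPM and then 65.2, 72.8 and 83.7 CPM, fell by 0.51. The peripheral stalk subunit Atp5o, also called OSCP, stood at 105, 146 and 178 CPM and at 92.9, 102 and 116 CPM, and fell by 0.49. Counts of Atp5o are less certain, because 47.9% of its exon length is shared with other genes. The lowest fold change among all called members was that of Atp5k, subunit e of the membrane part, which takes part in joining ATP synthase into dimers. It stood at 61.0, 88.7 and 154 CPM in controls and at 43.2, 59.0 and 70.2 CPM with stretch, a log2 fold change of -0.78 (SE 0.18, adjusted p = 0.0102, edgeR).

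Of the subunit c genes, Atp5g1 stood at 222, 301 and 325 CPM in controls and at 200.2, 214 and 232 CPM with stretch, and fell by 0.49 on the log2 scale. Atp5g3, at 219, 321 and 361 CPM and then 195, 237 and 245 CPM, fell by 0.47. The minor gene Atp5g2 was not called (-0.17, SE 0.12), with ranges of 30.0 to 42.7 CPM and 26.2 to 38.6 CPM that largely overlapped. The gene that rose, Atp5s, encodes coupling factor B and is no part of the rotor or the catalytic head. It is rare, at 5.31, 7.48 and 10.3 CPM in controls and 10.8, 12.3 and 14.7 CPM in stretched somata. Every stretched library lay above every control, and the log2 fold change was 0.68 (SE 0.18, adjusted p = 0.0166, edgeR). Atp5s was no longer called in the 6 soma libraries with the higher level of Eif2s3y (0.61), a Y-linked gene that splits the somata in a way the labels do not name.

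**Figure D3:**
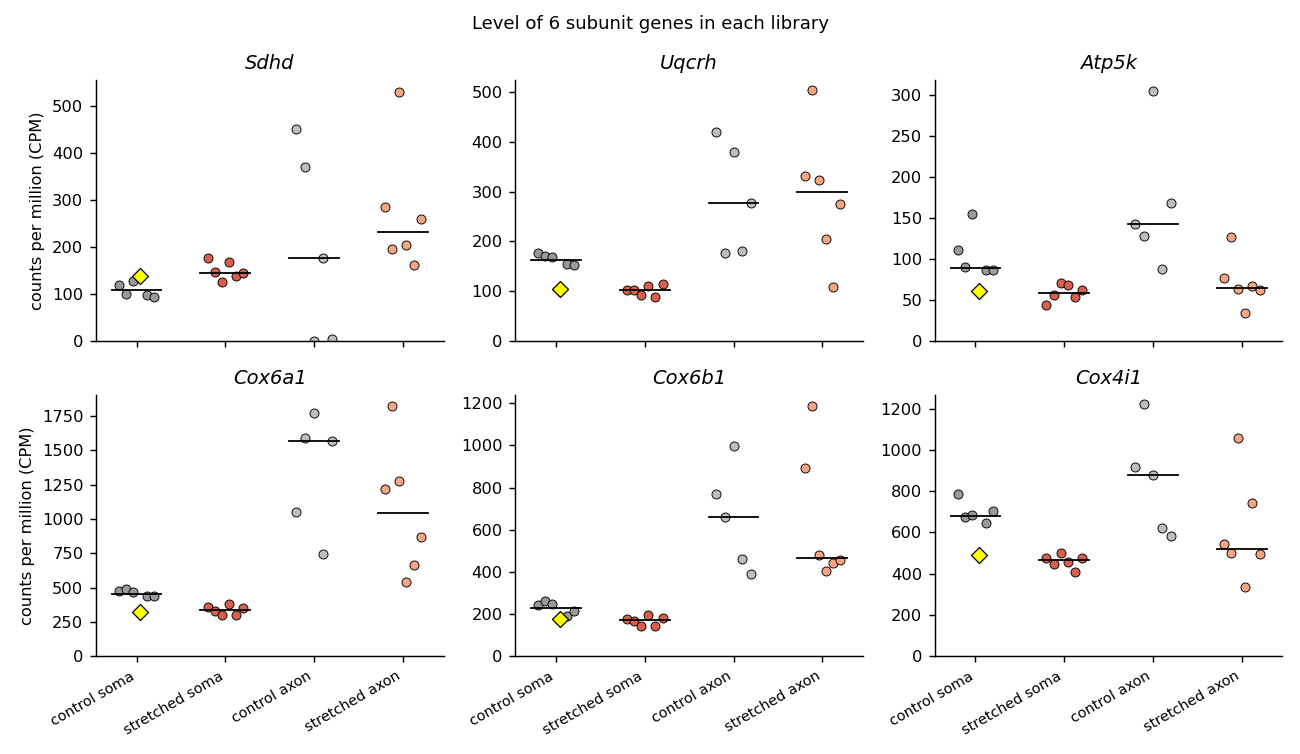
Level in CPM of Sdhd, Uqcrh, Atp5k, Cox6a1, Cox6b1 and Cox4i1 in each of the 23 libraries, with the group median as a line and control soma replicate 4 as a yellow diamond. Sdhd is higher in stretched than in control somata and the other 5 are lower. In the axonal compartment Cox6a1 and Cox6b1 lie above both soma groups in every library, at 538 to 1825 CPM and 389 to 1185 CPM.

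Fold changes in somata varied with transcript length. The members' models are short, with a median of 735.5 bases against 2573 for all protein-coding genes, and 31 of 50 are under 1000 bases. Among all tested genes under 1000 bases the median log2 fold change was -0.40 and 32.6% fell, and the 27 members in that class had a median of -0.47 with 20 lower. All 27 belong to complexes III, IV and V, while the 4 models of complex II are 1142 to 3171 bases long. The part of length in the difference between complexes was not tested. From 1000 to 2000 bases the median was -0.29 over all genes and -0.34 over 14 members. Among genes of 2000 to 4000 bases it was -0.04 over all genes and -0.33 over 4 members. The Spearman correlation of fold change with length was 0.48 over 15619 genes and 0.37 over the 46 members, a description over genes that share the same libraries.

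**Figure D4:**
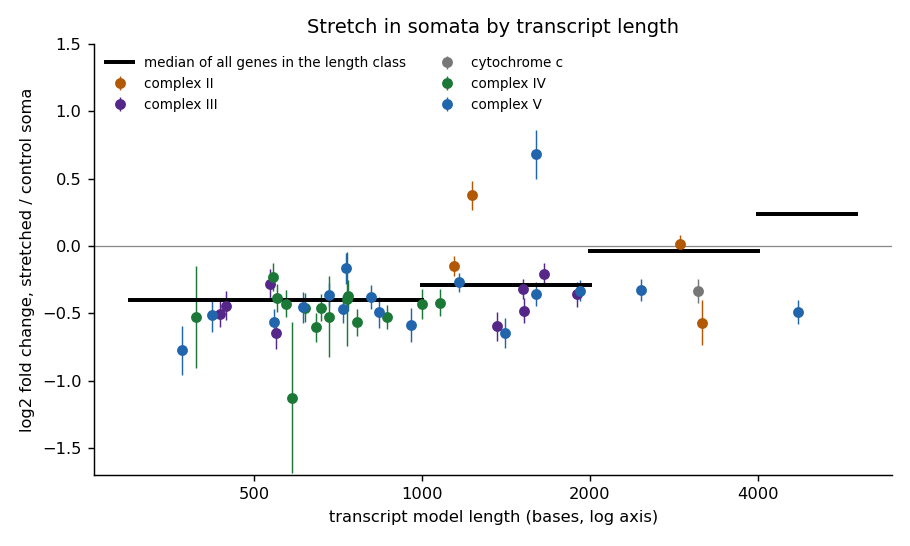
Log2 fold change in stretched against control somata, with bars of 1 standard error, against the length of each member's transcript model on a log axis. Black lines give the median of all tested genes in each length class, -0.40 under 1000 bases and 0.24 over 4000 bases. Most members under 2000 bases lie near the line of their class, and Atp5g1 and Sdhc lie under theirs.

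With smooth terms for length and GC content in the fit, 14 members were called lower and 2 higher, with a median of -0.16. Over all genes that fit called 1315 of 15619 lower and 814 higher, with a median of -0.02. The 14 were Sdhc, Uqcrc2, Uqcrfs1, Uqcrh, Uqcrq, Cox4i1, Cox5a, Cox5b, Cycs, Atp5a1, Atp5d, Atp5g1, Atp5j2 and Atp5l. Uqcrh then stood at -0.36 and Cox5a at -0.33, and Sdhd and Atp5s remained higher at 0.59 and 0.73. Atp5k (-0.44) and Cox8a (0.00059) were among the 20 that lost their call. The part of length in the result beyond these values was not tested.

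The soma libraries also split by Eif2s3y, at 24.7 to 28.7 CPM in 6 and 5.39 to 13.2 CPM in the other 6, with 3 control and 3 stretched libraries in each. The first set held replicates 1, 2 and 3 of the controls and 1, 2 and 8 of the stretched somata. Replicates 4, 5 and 6 of both groups made up the second. Every replicate number found in both groups thus fell in the same set. In the first set 37 members were called lower, 1 higher and the median was -0.49. Over all genes 2014 of 15867 were called lower there and 2623 higher. In the second set, which holds control soma replicate 4, none was called (edgeR, 0 of 15718 genes called at all and 18 members at an unadjusted p under 0.05) and the median was -0.29. Uqcrh gave -0.69 and -0.53 in these sets and Sdhd 0.43 and 0.37. Markers of other cells moved too: 3 of 8 microglial markers fell, and their summed level was 46.5 to 88.4 CPM in controls and 31.7 to 40.9 CPM with stretch. Of 8 neuron markers 4 fell and 1 rose (summed 7231 to 8883 and 6973 to 7609 CPM), while none of 8 astrocyte markers was called (summed 5121 to 14075 and 5354 to 11400 CPM). Their part in the members' result was not tested.

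Other genes of the pathway in the same somata were read from lists. Of 36 tested nuclear subunits of complex I, 30 fell and none rose, with a median of -0.46. Of 38 assembly factors of complexes II to V, 14 fell and 2 rose, with a median of -0.21. Among those that fell were Surf1, which takes part in building complex IV (-0.66), Sdhaf1, which helps to load iron-sulfur clusters into complex II (-0.93), and Atpif1, the inhibitor of ATP hydrolysis by complex V (-0.48). Cox15, an enzyme of heme A synthesis, rose by 0.62.

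The ADP/ATP carriers Slc25a4 and Slc25a5 fell by 0.38 and 0.32 and the phosphate carrier Slc25a3 by 0.37, and with the brain creatine kinase Ckb they were the 4 of 8 carriers and channels called. Of 12 regulators of nuclear respiratory genes, 3 rose and 1 fell. Gabpa, the DNA-binding part of the ETS factor GABP, rose by 0.57 and the nuclear receptor Esrra fell by 0.69. Gabpa lies on the strand opposite Atp5j and overlaps 12.7% of that gene's exon length, so reads there cannot be told apart unless strand was used in counting. Atp5j itself fell by 0.38.

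Mitochondrially encoded partners were counted in part. Of 6 such genes for subunits of complexes III to V, mt-Cytb and mt-Co1 were tested, and mt-Co2, mt-Co3, mt-Atp6 and mt-Atp8 were listed at 0 in all somata. mt-Cytb, the cytochrome b of complex III, rose in stretched somata from 4193 to 4881 CPM up to 5277 to 6191 CPM, a log2 fold change of 0.28 (SE 0.07, adjusted p = 0.0118, edgeR), while its nuclear partners in complex III fell or were not called. mt-Co1, the catalytic core of complex IV, had a log2 fold change of -0.04.

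Detection in the axonal compartment was broad for these genes. A mean soma level of 10 CPM or more was reached by 42 members, of which 34 were counted in all 11 axonal libraries. At 100 CPM or more on the same scale, 28 of 34 members (82.4%) were counted in all 11, beside 26.2% of the 2367 genes at that level. Members took 1.29% to 1.87% of counts in control axons and 1.18% to 2.15% in stretched axons. Levels were far less even than in somata: the median coefficient of variation of these 42 members was 44.8% and 46.0% in control and stretched axons, and 15.2% and 7.80% in control and stretched somata. Uqcrfs1, at 221 to 365 CPM in control somata, was at 0 in 3 of the 5 control axon libraries and at 203 and 218 CPM in the other two.

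Most members called higher in control axons than in control somata were small subunits of complex IV. In control cultures 8 of 46 tested members were higher in axons and 1 was lower, while 0.856% of all genes tested were called higher and 34.4% lower. The median log2 fold change was 0.32 over the members and -1.40 over all genes. The 8 were Cox5b, Cox6a1, Cox6b1, Cox6c, Cox7a2, Cox7c and Cox8a of complex IV and Uqcr11, a small subunit of complex III. In stretched cultures 5 of 46 were higher (0.843% of all genes) and 3 lower (28.4%), with medians of 0.37 and -1.13. These 5 were Cox6a1, Cox6b1, Cox6c, Uqcr10 and Atp5e. By CPM range, 12 members in control cultures were higher in every axonal than in every soma library (0.978% of all genes) and 14 in stretched cultures (1.35%).

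**Figure D5:**
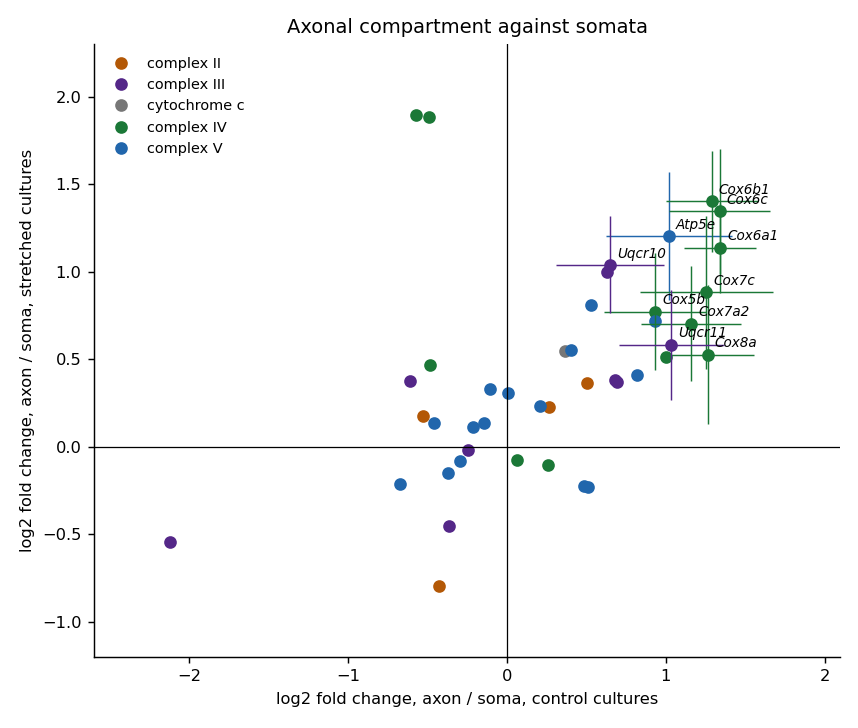
Log2 fold change of axon over soma in stretched cultures (vertical axis) against control cultures (horizontal axis) for the 43 members tested in both and not at 0 in a whole axonal group. Names and bars of 1 standard error mark members called higher in at least 1 of the comparisons. Cox6a1, Cox6b1 and Cox6c lie above 1 on both axes, and the unlabelled points at upper left are Cox6a2 and Cox6b2, which are counted in few axonal libraries.

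Cox6a1, an accessory subunit at the complex IV dimer face, stood at 1048, 1594, 1774, 744 and 1570 CPM in the 5 control axon libraries and at 327, 454 and 488 CPM (lowest, median, highest) in control somata. The log2 fold change was 1.34 (SE 0.23, adjusted p = 0.000382, edgeR). In stretched cultures it was 538, 1043 and 1825 CPM in axons and 299, 340 and 379 CPM in somata, a log2 fold change of 1.14 (SE 0.26, adjusted p = 0.00359, edgeR). Every axonal library lay above every soma library. Cox6b1, which lies on the intermembrane side beside the cytochrome c site, stood at 770, 660, 998, 461 and 389 CPM in control axons against 177 to 262 CPM in control somata. Its log2 fold changes were 1.29 (SE 0.29) in control and 1.40 (SE 0.29) in stretched cultures. Cox6c, a small membrane subunit, stood at 478, 607, 644, 225 and 420.4 CPM in control axons and at 258, 298 and 895 CPM in stretched axons, above every soma library. Its log2 fold changes were 1.34 (SE 0.32) and 1.34 (SE 0.36).

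These calls depend on the fit and, for some, on single libraries. In control cultures Cox7a2 and Cox8a were higher by 1.16 and 1.26 on the log2 scale. With Cox6a1, Cox6b1 and Cox6c they were the 5 members called higher whichever 1 library was left out. Without a filter on low counts, however, all 8 lost their calls, and 125 of 30188 genes were called higher. Uqcr11 (1.04), Cox5b (0.93) and Cox7c (1.26) lost theirs in several such fits: without control axon 7, or without control soma 2, 4, 5 or 6, the 5 just named were the members called higher. Without control axon 5, 12 members were called higher and 4 lower, beside 183 and 7968 of 15205 genes. In stretched cultures Uqcr10 was higher by 1.04 and Atp5e by 1.20, and Atp5e lost its call without stretched soma 1, 2, 4, 6 or 8. Without the filter 1 member, Cox6b1, was called higher in stretched cultures, beside 126 of 31176 genes. DESeq2 called 15 and 12 members higher in control and stretched cultures, beside 281 of 14728 and 290 of 14466 genes. On simulated counts for these comparisons the test recovered 0% of genes changed 2-fold and 0% of those changed 4-fold. That simulation changed only 100 genes at each size. The data themselves gave 5196 calls among 14728 genes in control and 4234 among 14466 in stretched cultures. The simulated 0% therefore does not measure what the test could find here. A member without a call is still not shown to be level between compartments.

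By complex, summed levels in axons and somata differed most for complex IV. It reached 5716 ± 1360 CPM in control axons (SD, n = 5), 2.24 times the soma level, and 4503 ± 1500 CPM in stretched axons (SD, n = 6), 2.37 times the soma level. With TMM-scaled CPM these ratios were 1.60 and 1.62. For complexes II and V the ratios in control cultures were 1.19 and 1.16 on CPM but 0.864 and 0.843 with TMM scaling, and for complex III 1.26 and 0.906, so their direction depends on the scaling. In stretched cultures the ratio of complex II also turned, from 1.32 to 0.912. Scaling by total counts in place of TMM moved the median of all genes from -1.40 to -1.27 in control and from -1.13 to -0.73 in stretched cultures.

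Larger subunits and the catalytic genes of complex V were not called between compartments. Cox4i1 had log2 fold changes of 0.06 (SE 0.20) in control and -0.08 (SE 0.27) in stretched cultures. Atp5b gave -0.30 (SE 0.36) and -0.08 (SE 0.24), and Atp5a1 -0.21 (SE 0.21) and 0.11 (SE 0.21). All 8 members called higher in control cultures have models under 1000 bases: in that class 5.99% of all genes tested were called higher, against 8 of 27 members, and in stretched cultures 6.59% against 5 of 27. The median in that class was -0.13 over all genes and 0.65 over members in control cultures, and 0.05 and 0.58 in stretched cultures.

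Members called lower in axons were rare in somata too. By CPM range, 2 members in control cultures were lower in every axonal than in every soma library (40.6% of all genes) and 3 in stretched cultures (34.6%). Of the 2 in control cultures, Uqcrfs1, at 221 to 365 CPM in control somata, was not called. Cox4i2, at 2.51 CPM on average in control and 1.97 CPM in stretched somata, was at 0 in all 11 axonal libraries. Against a floor of 3 counts per library this was at least 19.8-fold lower in control and at least 14.1-fold lower in stretched cultures. In stretched cultures Cox7a1 was at 0 in axons and at least 8.92-fold lower than in somata. Atp5s, which had risen in stretched somata, was at 0 in all 6 stretched axon libraries, at least 90.0-fold lower than in somata. It was counted in 1 of 5 control axon libraries, at 25.4 CPM, above every soma library (14.7 CPM at most). These bounds cover counting error only. Of the 42 members with a mean soma level of 10 CPM or more, 8 had no count in some axonal library. Cyc1 and Uqcrc2, at mean soma levels of 255 and 181 CPM, were at 0 in stretched axon replicate 1.

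Among related genes in these comparisons, mt-Co1 was higher in axons by 2.51 (SE 0.32) and 2.00 (SE 0.33) on the log2 scale in control and stretched cultures. Slc25a5 was higher by 1.45 (SE 0.21) and 0.96 (SE 0.30). Of 36 tested complex I subunits, 1 was higher in control cultures and none in stretched cultures, with medians of -0.04 and 0.16. Astrocyte markers, whose part in these results was not tested, summed to 4651 to 25629 CPM in control axons and 4790 to 19604 CPM in stretched axons, and none of the 8 was called against somata.

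Stretch in axons gave no call for any member. Of 42 tested, 0 were called in either direction (edgeR), 0 had an unadjusted p under 0.05, and 0% of all 4947 genes tested were called, with 46 at an unadjusted p under 0.05. DESeq2 called 18 genes and limma voom 10, none of them members. No member's CPM ranges were apart, beside 0.101% of all genes higher and 0.222% lower without overlap. Cox7a1 and Atp5s were below the filter here, with counts in 2 and 1 of 5 control axon libraries. In 1 fit over all 4 groups they passed the filter through the somata, and both were called lower. That fit called 2291 of 16113 genes higher and 1579 lower, so these 2 calls are no result about members. The members' median log2 fold change was -0.04, and medians by complex were 0.24, -0.01, -0.38 and 0.07 for II, III, IV and V. On simulated counts with the depth and spread of these libraries, the test recovered 0% of 100 genes changed 2-fold and 0% of 100 changed 4-fold among 4947, and in somata 75% and 94% among 15632. The changed genes were drawn from all genes tested, so these shares do not describe the members.

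The intervals show what the axonal libraries can resolve. Standard errors of the 42 log2 fold changes ran from 0.33 to 2.83. Cox6a1 had the smallest, with a log2 fold change of -0.35 and a 95% interval of -1.11 to 0.41. Atp5a1 gave 0.26 (-0.54 to 1.06), Atp5b 0.12 (-0.84 to 1.09) and Cox4i1 -0.45 (-1.41 to 0.52). Declines of the size seen in somata lie inside each of these intervals. Uqcrc1 had the smallest unadjusted p of the 42. It stood at 473, 574, 520, 597 and 96.6 CPM in control axons and at 396, 890.1 and 1551 CPM in stretched axons, with 3 of 6 stretched libraries above every control and 3 inside the control range. Its log2 fold change was 1.02, with an interval of -0.34 to 2.37.

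The difference between the stretch effect in axons and in somata was tested by an interaction over all 4 groups. Of 46 members, 2 were called, both lower in axons relative to somata, beside 12.8% of 16113 genes called higher and 8.93% lower. They were Cox7a1 and Atp5s, both at 0 in every stretched axon library and counted in 2 and 1 of 5 control axon libraries. The call of Atp5s rests on control axon replicate 5: without that library Atp5s was not called and Cox6a2 was. DESeq2 called Cox7a1 but not Atp5s, and limma voom called neither, with 0 of 16113 genes called. No other member was called with all libraries, and the median over members was 0.24. For the 5 called members with the lowest fold changes in somata the values were -0.55 (SE 0.72) for Atp5k, 0.54 (SE 0.59) for Uqcrh, 0.35 (SE 0.67) for Atp5d, 1.15 (SE 1.01) for Cox5a and 1.71 (SE 2.01) for Uqcrfs1. No difference between compartments was called for them, with standard errors of 0.59 to 2.01. The test recovered 0% of simulated 2-fold and 4-fold interactions among 16113 genes, but that simulation changed only 100 genes at each size. The data themselves gave 2070 genes higher and 1439 lower in the main fit, but 6 in all with the replicate block and 0 with limma voom. Neither the simulation nor these calls say what was detectable for members counted in all 4 groups.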

How the data were processed

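RNA of 23 libraries was read as gene counts. Per the submitters' processing notes, the tools were FastQC 0.11.9, MultiQC 1.12, fastp 0.20.1, STAR and HTSeq 0.13.5, with genome build mm10. The deposited values are whole-number counts per gene ID, not normalized by the authors. Strand setting, annotation release and any use of molecular identifiers are not given in the sources used here. HTSeq's summary lines were left out of library totals. Symbols and lengths came from GENCODE annotation of GRCm38 and matched 55141 of 55487 IDs.

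Printed levels are CPM (gene counts scaled to a total of 1000000), and the levels' precision is limited by 16369153 to 43048953 counts per library. Each comparison was fitted on its own 2 groups with edgeR 4.0.16 in R 4.3.3 (filterByExpr, TMM, robust quasi-likelihood test), and the interaction on all 4 groups. Benjamini-Hochberg adjustment ran over all genes tested, with a threshold of 0.05. A 95% interval is the log2 fold change plus or minus a t quantile times its SE. A floor of 3 counts per library bounds folds against groups at 0, for counting error only. Alternatives used DESeq2 1.42.0, limma 3.58.1, other scalings and filters, length and GC terms (mgcv 1.9.3), a replicate block and each library left out. The fits were tested on simulated counts. Sequences are RefSeq's.

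Genes named with levels were set by role (the complex II subunits, the core genes of complex III, Cycs, 6 complex IV subunits, and the hexamer, stalk and subunit c genes of ATP synthase), with the 2 lowest and 2 highest called fold changes of each comparison. The members and lists were chosen with earlier results of these data known.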

Additional observations from a re-analysis of the deposited data

Results flagged for a closer look

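Among 116 sets of levels (a member or a complex in 1 group), 10 held a library far from the rest, where chance alone gives about 1 in 20. Stretched axon replicate 4 gave 5 of these, all high: 2498 CPM for the sum of complex II, 9153 CPM for the sum of complex V, 395.3 CPM for Sdhc, 530.0 CPM for Sdhd and 2696 CPM for Atp5b. Uqcrc1 had 3: control soma replicate 1 was high at 646.9 CPM, stretched soma replicate 4 was high at 603.6 CPM and control axon replicate 7 was low at 96.56 CPM. The summed level of complex III was high in stretched soma replicate 4, at 1947 CPM. Atp5g1 was low in control soma replicate 4, at 222.3 CPM.

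The interaction test (edgeR) called 2 members: Cox7a1 at -9.214 and Atp5s at -10.84 on the log2 scale. Of these, DESeq2 called Cox7a1 alone and limma voom neither, with 0 of 16113 genes called. Atp5s lost its call without control axon replicate 5. Both were at 0 in all 6 stretched axon libraries, were below the filter in the comparison of axons alone, and entered this test through the groups where they were counted. These fitted values are no bounds.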

How the results depend on the processing

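In somata, 1 fit over all 4 groups called 0 members lower and 0 higher. Length and GC terms left 14 lower (median -0.164), and with the replicate block added 8 lower (median -0.166). Over all genes these 2 fits called 1315 and 980 of 15619 lower. The set of libraries with higher Eif2s3y gave 1 higher, and the lower set 0 lower and 0 higher (median -0.289). With length and GC terms, without and with the block, Atp5g2 turned to 0.175 and 0.171, Cox7c to 0.00456 and 0.0311, Cox8a to 0.00059 and 0.00973, Sdhb to 0.149 and 0.160, and Uqcrc1 to 0.0677 and 0.0879. Sdha turned to -0.00419 with those terms, -0.00243 in the higher set and lay between -0.00284 and 0.0431 when each library was left out in turn.

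For stretch in axons, the replicate block gave a median of -0.632. The fit over all 4 groups called 2 lower, beside 1579 of 16113 genes. For axon against soma in control cultures, total counts gave a median of 0.607, no filter 3 lower and 0 higher, DESeq2 15 higher, limma voom 4 lower (median 0.00874), the replicate block 0 higher (median 0.1098), the fit over all 4 groups 5 higher, and genes counted in every library 0 lower and 13 higher (median 0.630). In stretched cultures, total counts gave 15 higher (median 0.825), no filter 5 lower and 1 higher, DESeq2 12 higher, limma voom a median of 0.138, the replicate block 0 higher, and genes counted in every library 0 lower and 8 higher. In the interaction DESeq2 called 1 member lower, limma voom 0 and the replicate block 0. Over all genes in control cultures, total counts called 182 higher in axons, DESeq2 281 and the replicate block 19. Genes counted in every library gave 159 of 1504. In stretched cultures the same fits gave 282, 290, 11 and 169 of 1318. The causes of these shifts were not tested.

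With TMM-scaled CPM the log2 ratios of summed levels were 0.0557 for complex II in somata. For axon over soma in control and stretched cultures they were -0.211 and -0.133 for complex II, -0.143 and 0.273 for III, 0.679 and 0.694 for IV and -0.246 and 0.0646 for V, and 0.502 for Cycs in stretched cultures. The complex values without control soma replicate 4, the interaction with each library left out and the fits of genes counted in every library were added after seeing the data.

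Leaving out each library in turn gave 32 to 38 members lower and 1 to 2 higher in somata (median -0.521 to -0.396) and 0 in axons. It gave 1 to 4 lower and 5 to 12 higher (median 0.192 to 0.345) for axon against soma in control cultures, and 3 lower and 4 to 7 higher (median 0.204 to 0.416) in stretched cultures. The interaction kept 1 to 2 lower and 0 to 1 higher.

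Replicate numbers are shared between groups. In somata the deviations of same-numbered libraries correlated at 0.0906 to 0.233 over 5 pairs, 0.189 on average. Pairs of different numbers there averaged -0.0301 over 31 (-0.383 to 0.323). In axons the means were 0.0398 over 3 same-numbered and -0.00361 over 27 other pairs. Between axons and somata, same-numbered pairs averaged 0.0504 over 4 in control and 0.00468 over 6 in stretched cultures, and other pairs -0.00772 and -0.000939. The labels state no pairing, so the number was not used as one in the main fits. Whether same-numbered libraries share a culture was not tested. With the replicate block, 34 members were lower in somata (median -0.384), where Cyc1 lost its call and Cox6b2 gained one. Between axons and somata the block removed all 8 higher calls in control and all 5 in stretched cultures, and it removed both interaction calls.

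For stretch in axons the standard errors reached 2.83 on the log2 scale. There, 0% of simulated 4-fold changes were recovered, among 100 genes drawn from all genes tested and not from the members.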
